A study of Mus musculus with 23 samples.

Results

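The genes described here make cholesterol and fatty acids: the mevalonate pathway, the steps from squalene to cholesterol, the proteins that sense sterols and switch these genes on, the enzymes that build and desaturate fatty acids, and a sterol carrier. They were chosen by symbol from a list of 29 genes, and 28 of them were found among the 36814 genes of the count tables. Hmgcs1 was not analysed here in the counts, and neither were other enzymes of these pathways outside the list.

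F9 is an established mouse embryonal carcinoma line that turns into extraembryonic endoderm when given retinoic acid. The study asked how retinoic acid (RA) and its nuclear receptors RAR and RXR change the transcripts of these cells. Cells were grown in 5% fetal bovine serum, seeded 16 h before treatment, and given all-trans RA at 1e-07 M for 6, 12, 24 or 48 h, 2 libraries at each time. Untreated cells at 0 h gave 4 libraries, and cells given the solvent DMSO at 0.001% gave 1 library at 24 h and 1 at 48 h. The labels name no transgene or deletion in any group. They do not say whether replicates came from separate cultures, so p-values here measure library-to-library spread, part or all of which may be technical.

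Cholesterol synthesis starts from acetyl-CoA, passes through mevalonate and squalene, and ends with a series of changes to the sterol ring. When membranes of the endoplasmic reticulum are low in sterol, the escort protein SCAP carries the SREBP transcription factors to the Golgi, where they are cut free to enter the nucleus and raise nearly all of these genes together. INSIG proteins hold SCAP back when sterol is plentiful, so in most cells the pathway moves as a unit with the supply of sterol and serum lipids.

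That shared control is often seen in the promoters as a sterol response element beside a CCAAT box, the site of NF-Y, which works with SREBP. RefSeq promoter windows on build GRCm38.p6, from 250 bases before to 50 after the start, were at hand for 23 of the 29 genes. CCAAT, searched on both strands, was present in 19 of these 23 genes (82.6%) and in 41.1% of the 27025 genes in the table. The sterol element written as TCACNCCAC was present in 1 of 23 genes, Hmgcs1 (4.35%, against 1.44% of all genes). The looser TCACNNCAC, searched after that, was present in 4 of 23, Hsd17b7, Dhcr7, Msmo1 and Hmgcs1 (17.4%, against 4.37%). Direct repeats of AGGTCA spaced by 5 or by 2 bases, the arrangements that RAR and RXR bind best, were in 0 of 23 genes, and in 3 and 2 of all genes. A match is a description of letters, and a window without one says nothing about the factor.

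The 140 bases before the start are printed for 5 genes, on the gene's own strand, with CCAAT (or ATTGG, the same box on the other strand) and TCACNNCAC in capitals. Msmo1 (chr8:64733579-64733718, minus strand) and Hsd17b7 (chr1:169969206-169969345, minus strand) show the paired arrangement. Idi1 (chr13:8885466-8885605, plus strand), Sc5d (chr9:42264301-42264440, minus strand) and Elovl6 (chr3:129532246-129532385, plus strand) are the genes whose transcripts changed most below, and Elovl6 has neither motif there. In Msmo1 the first CCAAT and the sterol element overlap at a shared T.
Msmo1: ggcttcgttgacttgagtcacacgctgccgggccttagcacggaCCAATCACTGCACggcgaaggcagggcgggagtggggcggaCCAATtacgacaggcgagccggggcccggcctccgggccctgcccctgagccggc
Hsd17b7: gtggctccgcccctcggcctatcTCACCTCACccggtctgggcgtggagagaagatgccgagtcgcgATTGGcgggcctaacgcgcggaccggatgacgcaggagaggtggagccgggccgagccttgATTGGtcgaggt
Idi1: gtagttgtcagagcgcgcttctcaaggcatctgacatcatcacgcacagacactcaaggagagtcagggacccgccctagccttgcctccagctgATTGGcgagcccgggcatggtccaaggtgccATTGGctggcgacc
Sc5d: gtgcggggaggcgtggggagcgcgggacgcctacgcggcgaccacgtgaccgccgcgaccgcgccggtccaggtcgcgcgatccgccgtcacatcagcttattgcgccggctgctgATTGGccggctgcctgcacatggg
Elovl6: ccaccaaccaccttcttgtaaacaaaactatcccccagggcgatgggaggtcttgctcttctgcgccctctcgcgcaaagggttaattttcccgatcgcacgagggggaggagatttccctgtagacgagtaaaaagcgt

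Levels below are in CPM, the counts of a gene for every 1e+06 counts given to genes after TMM scaling, which evens out differences in composition between libraries. The 14 libraries held 7078941 to 10948932 gene counts. They fell into 2 sets that the labels do not name, by the share of reads outside any annotated gene: 57.3 to 59.43% in set 1 and 52.51 to 53.77% in set 2. Set 1 held replicate 1 of 0 h and of each RA time and both DMSO libraries, and set 2 held 0 h replicates 2 to 4 and replicate 2 of each RA time. The main test was edgeR's quasi-likelihood test on all 14 libraries with a term for the set, with p-values adjusted over the 16155 genes tested, and genes with an adjusted p under 0.05 count as called. All 28 genes were tested. Log2 changes are given with their standard error, and every adjusted p below comes from this test unless another is named.

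As a check of the cells, all 10 genes of a pluripotency list were tested, and their summed level was 4990 to 6010 CPM at 0 h and 2630 and 1700 CPM after 48 h of RA, when 9 of 10 were lower. The 13 extraembryonic endoderm markers summed to 229 to 443 CPM at 0 h, 453 and 424 CPM in DMSO, and 7620 and 5650 CPM after 48 h of RA, when 13 of 13 were higher than at 0 h. The 14 S phase genes went from 5430 to 6180 CPM at 0 h to 3470 and 3420 CPM at 48 h, when 13 of 14 were lower. Macrophage markers stayed between 19.2 and 34.9 CPM, and of 3 fibroblast genes tested at 48 h Pdgfra (104 and 54.8 CPM) and Col1a1 (2.87 and 2.17 CPM) were higher and Thy1 (1.03 and 1.25 CPM, from 11.1 to 28.6 CPM at 0 h) was lower. Of the hepatocyte-like list only Ttr was tested, and it was higher at 48 h, with 29 and 339 counts against 0, 1, 0 and 0 at 0 h. Single genes such as Pdgfra and Ttr do not identify a cell type, and whether they belong to the endoderm shift was not tested. At 6 h the sums were 5580 and 5110 CPM for pluripotency (1 of 10 higher, 0 lower), 6220 and 6060 CPM for S phase (0 of 14 called) and 579 and 334 CPM for endoderm (2 of 13 higher, 1 lower). At 12 h 5 of 13 endoderm markers were higher and 1 lower. The pluripotency sums at 12 h were 4630 and 4610 CPM, both below the untreated range, with 2 of 10 genes higher and 1 lower. Of the S phase genes 0 of 14 were called at 12 h. At 24 and 48 h the shifts move with the RA results below, and so do those of endoderm and pluripotency genes at 12 h. The part of these shifts in the RA results was not tested. In bulk RNA, fewer cells of a type and less RNA per cell cannot be told apart.

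Few of the 28 genes were called with RA in the main fit, and the number depended on the untreated libraries used, as given below. After 6 h only Elovl6 was higher, 1 of 28 (3.57%) where 5.61% of all genes were called (4.1% higher and 1.51% lower). After 12 h Elovl6 was higher and Scap lower (12.7% of all genes were called, 7.38% higher and 5.31% lower). After 24 h Sc5d and Scd2 were higher and none lower, against 29% of all genes (15.5% higher and 13.5% lower). After 48 h Sc5d, Scd2 and Ebp were higher and Idi1 and Elovl6 lower, 5 of 28 where 48.8% of all genes were called (25.8% higher and 22.9% lower). From 24 to 48 h of RA only Elovl6 fell (11% of all genes). Without the set term the calls among the 28 were Elovl6 at 6 and 12 h, 0 at 24 h and Sc5d at 48 h, against 1.66, 2.75, 12.3 and 29.5% of all genes. There were 0 from 24 to 48 h (0.706% of all genes). With the set term the share of the 28 called was below that of all genes at each RA time, and without it 1 of 28 (3.57%) was above the share of all genes at 6 and 12 h. The median log2 change of the 28 genes was -0.33, -0.17, 0.12 and -0.13 at 6, 12, 24 and 48 h, and that of all genes lay between -0.01 and 0.02. Without the set term the median of the 28 was -0.17, 0.00, 0.31 and 0.16, so its sign at 48 h turned.

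Elovl6, which lengthens palmitate-sized fatty acids, gave the largest early change. Its level was 321, 251, 250 and 294 CPM in the 4 untreated libraries, 560 and 563 CPM after 6 h of RA and 584 and 554 CPM after 12 h. Both RA libraries lay well above all 4 untreated ones at both times. There was no DMSO library at 6 or 12 h, so RA and time in culture cannot be told apart there. It was back to 316 and 349 CPM at 24 h and stood at 266 and 157 CPM at 48 h, with DMSO at 335 and 312 CPM. At 24 h 1 library was within the untreated range and 1 just above it, and at 48 h 1 was within it and 1 below.

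The log2 change of Elovl6 was 0.97 ± 0.15 at 6 h (adjusted p = 0.00139) and 0.98 ± 0.15 at 12 h (adjusted p = 0.000884). It was 0.22 ± 0.16 at 24 h (adjusted p = 0.329). At 48 h it was -0.46 ± 0.16 (adjusted p = 0.0304) against 0 h and -0.68 ± 0.18 (adjusted p = 0.0287) against 24 h of RA. The early calls were also made without the set term (adjusted p = 0.0285 and 0.018), but were lost without 6 h replicate 2 (0.79, adjusted p = 0.166) and without 12 h replicate 2 (0.90, adjusted p = 0.0552). The 48 h value depended on 48 h replicate 2: without it the log2 change was -0.05 (adjusted p = 0.843) against 0 h and -0.29 (adjusted p = 0.403) against 24 h. The call against 0 h was also lost without the set term (adjusted p = 0.174), with the replicate block (0.0656), with a filter of 1 CPM in 4 libraries (0.0593) and without 0 h replicate 1 (0.0776), 2 (0.0544) or 4 (0.0611) or 6 h replicate 2 (0.0519). The call against 24 h was also lost without the set term (adjusted p = 0.242), with that filter (0.0536) and without 0 h replicate 2 (0.0608), 6 h replicate 2 (0.0617) or 24 h replicate 2 (0.183). Against DMSO, Elovl6 did not pass at 24 h (0.10, adjusted p = 0.830) or 48 h (-0.48, adjusted p = 0.131).

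**Figure D1:**
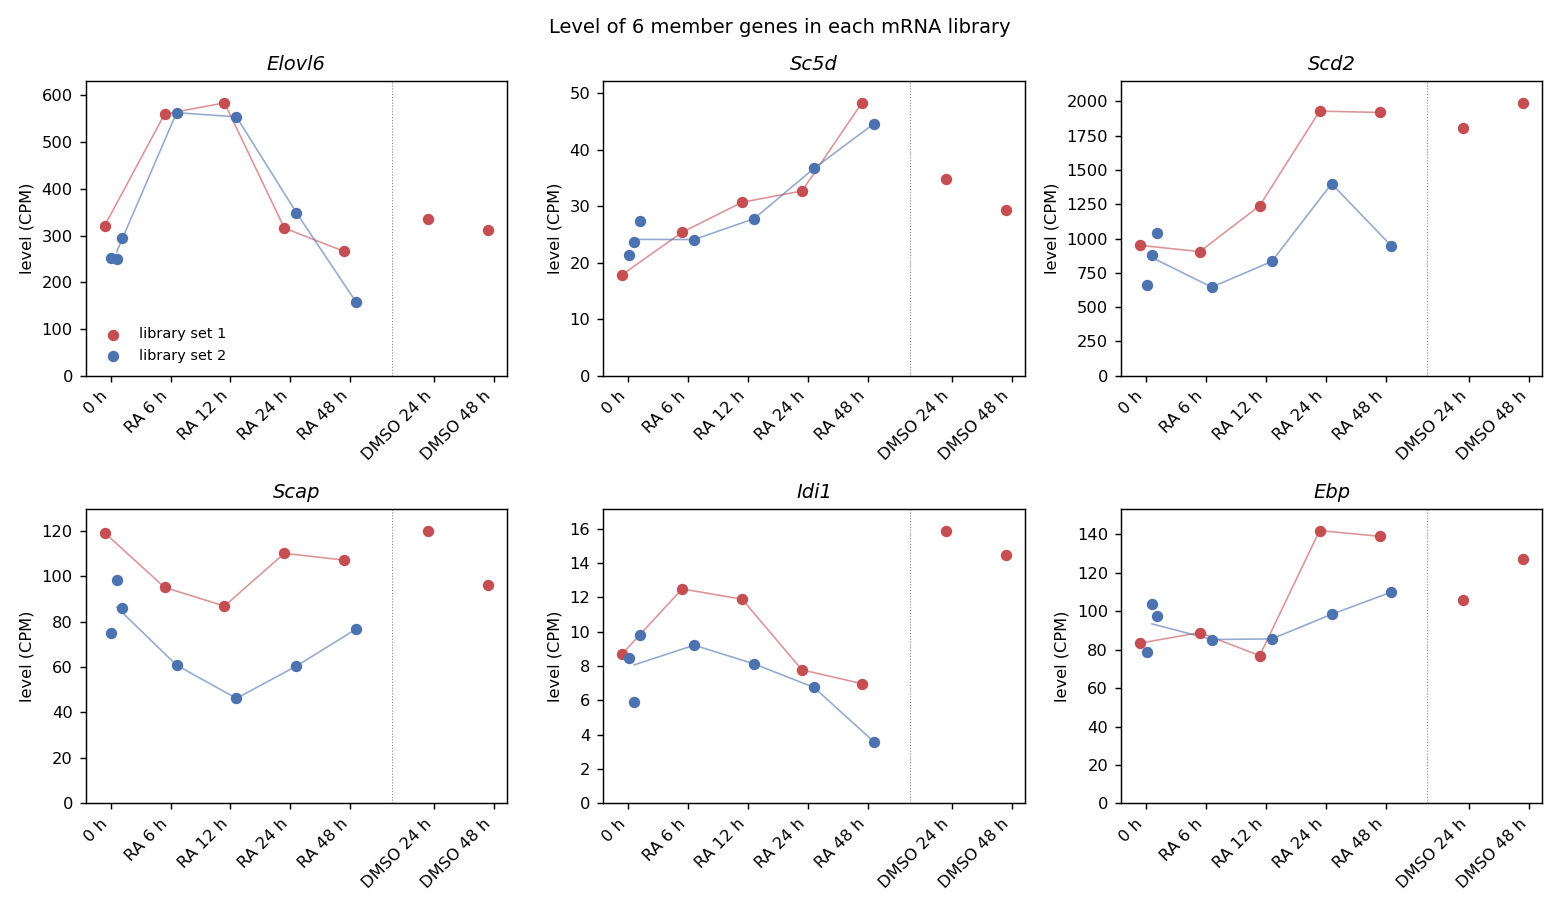
Level of the 6 called genes in each mRNA library (y axis, CPM from 0) by group (x axis), with set 1 in red and set 2 in blue; points are single libraries and lines join the means of a set over the RA series. Elovl6 peaks at 554 to 584 CPM at 6 and 12 h in both sets, Sc5d climbs to 48.3 and 44.6 CPM at 48 h in both, and Scd2 and Ebp reach DMSO-like levels in set 1.

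The mevalonate genes come first in the pathway, and 0 of 6 were called at 6, 12 and 24 h. Acat2, which joins acetyl-CoA units, ranged from 63.9 to 153 CPM over the 14 libraries, and the kinases Mvk and Pmvk from 28.5 to 95 and from 34.4 to 73.2 CPM. Mvd, which makes isopentenyl diphosphate, ranged from 37.4 to 178 CPM. Fdps, which makes farnesyl diphosphate, was at 31.1, 36.3, 80 and 62.8 CPM at 0 h. Its RA libraries ran from 24.5 CPM at 48 h to 102 CPM at 24 h, and most of them lay within the untreated range. The Acat2 locus overlaps the gene Tcp1 on the other strand and has a near-identical neighbour, and Fdps has processed copies, so their counts are uncertain where reads were split. The labels do not give the strand setting of the counting.

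Idi1, the isomerase that makes both building blocks of isoprenoids, was the mevalonate gene that fell. It was at 8.72, 8.48, 5.91 and 9.83 CPM at 0 h, 12.5 and 9.22 CPM at 6 h, 11.9 and 8.13 CPM at 12 h, 7.78 and 6.76 CPM at 24 h and 6.98 and 3.59 CPM at 48 h. The DMSO libraries stood at 15.9 and 14.5 CPM, above all 12 others, and the 48 h libraries overlapped with the untreated range. The log2 change at 48 h was -0.80 ± 0.28 (adjusted p = 0.0287) against 0 h and -1.30 ± 0.37 (adjusted p = 0.0204) against DMSO. Idi1 was the only one of 28 called against DMSO at 48 h, where 24.1% of all genes were called. Both calls were lost without the set term (adjusted p = 0.186 and 0.0729) and without 48 h replicate 2 (-0.41, adjusted p = 0.416, and -0.99, adjusted p = 0.104). The call against 0 h was also lost without 0 h replicate 2 (adjusted p = 0.0671), 0 h replicate 4 (adjusted p = 0.0584) and 6 h replicate 2 (adjusted p = 0.052), in set 2 alone (adjusted p = 0.0719) and with only the groups compared (adjusted p = 0.087). Idi1 is a low gene, with 43 to 114 counts per library, and shares sequence with Idi2.

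Among the 11 genes from squalene to cholesterol, Sc5d rose at 24 and 48 h and Ebp at 48 h, and the other 9 were not called at any time. Sc5d, the sterol desaturase late in the pathway, gave the steadiest result of the 28. Its level was 17.9, 21.4, 23.6 and 27.4 CPM at 0 h, 25.4 and 24.1 CPM at 6 h, 30.7 and 27.8 CPM at 12 h, 32.7 and 36.7 CPM at 24 h and 48.3 and 44.6 CPM at 48 h. Both RA libraries exceeded all 4 untreated ones at 12, 24 and 48 h. DMSO was at 34.9 and 29.3 CPM, so the 24 h RA libraries lay on either side of DMSO and only the 48 h libraries were above both DMSO values.

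The log2 change of Sc5d was 0.63 ± 0.17 at 24 h (adjusted p = 0.0124) and 1.06 ± 0.17 at 48 h (adjusted p = 0.000158). The 48 h call held in all 22 alternatives tried, with adjusted p of at most 0.0155. The 24 h call was lost without the set term (adjusted p = 0.0537), in set 2 alone (adjusted p = 0.122) and without 24 h replicate 2 (adjusted p = 0.108). Against DMSO the log2 difference was -0.05 at 24 h (adjusted p = 0.928) and 0.63 at 48 h (adjusted p = 0.081), and neither passed.

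Ebp, the sterol isomerase that acts before Sc5d, was at 83.4, 78.7, 104 and 97.7 CPM at 0 h and at 139 and 110 CPM at 48 h, both above the untreated range. DMSO reached 106 and 127 CPM. Its log2 change at 48 h was 0.42 ± 0.16 (adjusted p = 0.0494), and the call was lost in 13 of 22 alternatives. These included leaving out 0 h replicate 1 (adjusted p = 0.167) or 2 (0.107), either library of 6 h (0.0736 and 0.0761), 12 h (0.0901 and 0.0723) or 48 h (0.492 and 0.0552), and DESeq2 (0.0622).

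The remaining ring-closing and trimming enzymes varied between libraries without a call. Fdft1, squalene synthase, was at 161 CPM in 0 h replicate 1 and 355 and 277 CPM in set 1 at 24 and 48 h of RA, but at 95.5, 174 and 146 CPM in 0 h replicates 2 to 4 and 107 and 88.8 CPM in set 2. Msmo1, which removes methyl groups and whose promoter carries both motifs, was at 108 CPM at 0 h and 277 and 231 CPM at 24 and 48 h in set 1. In set 2 Msmo1 stood at 170, 229 and 292 CPM at 0 h and 214 and 161 CPM at those times. RA libraries of both genes were thus above the untreated one in set 1 and within or below the untreated range in set 2. Hsd17b7, with the same pair of motifs, stayed between 24.8 and 51.7 CPM. Sqle, the squalene epoxidase, ranged from 160 to 400 CPM, Lss, which closes the ring, from 64.9 to 254 CPM, and Cyp51, the lanosterol demethylase, from 112 to 275 CPM. Nsdhl, a sterol dehydrogenase, ranged from 27.1 to 77.5 CPM, Tm7sf2, a sterol reductase, from 9.44 to 31.4 CPM, and Dhcr7, the reductase that yields cholesterol, from 29.9 to 130 CPM. The highest level of Sqle, Lss, Cyp51, Nsdhl, Tm7sf2 and Dhcr7 alike was in a DMSO library.

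Among the sensing and regulating genes, 1 call was made in 1 comparison. Scap, the SREBP escort, was at 119, 75, 98.1 and 85.9 CPM at 0 h and 86.8 and 46.2 CPM after 12 h of RA. The 12 h library of set 1 overlapped with the untreated range, and that of set 2 was below it. The log2 change was -0.72 ± 0.15 (adjusted p = 0.00675), but it was -0.51 without the set term (adjusted p = 0.566), and the call was lost in set 2 alone (adjusted p = 0.0668) and without 12 h replicate 2 (adjusted p = 0.212). At 24 h Scap was at 110 and 60.4 CPM, with the set 2 library still below the untreated range (-0.36, adjusted p = 0.0823). At 48 h both libraries, at 107 and 76.7 CPM, lay within that range.

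Srebf1 and Srebf2 encode the SREBP factors themselves. Srebf1 was at 97.7, 100, 106 and 87.7 CPM at 0 h and 168 and 117 CPM after 24 h of RA, above all untreated libraries, and its log2 change of 0.44 just missed the threshold (adjusted p = 0.0513). Srebf2 ranged from 191 to 420 CPM and did not pass at any time. Insig1, which retains SCAP and is itself an SREBP target, showed the difference between the sets most plainly: 91.6 CPM at 0 h, then 138, 174, 237 and 172 CPM over the RA times in set 1, and 59, 94.9 and 110 CPM at 0 h, then 61.1, 62.6, 75.4 and 41.2 CPM in set 2. DMSO was at 224 and 214 CPM. Insig1 was not called in any comparison, and its log2 change at 48 h was -0.39 (adjusted p = 0.458).

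Of the 6 fatty acid genes, Elovl6 and Scd2 were called. Scd2, a stearoyl-CoA desaturase, was at 951, 665, 881 and 1040 CPM at 0 h, 905 and 646 CPM at 6 h, 1240 and 833 CPM at 12 h, 1930 and 1400 CPM at 24 h and 1920 and 946 CPM at 48 h. Both 24 h libraries exceeded the untreated ones, and at 48 h only that of set 1 did. DMSO stood at 1810 and 1990 CPM, as high as RA in set 1. The log2 change was 0.76 ± 0.18 at 24 h (adjusted p = 0.00725) and 0.50 ± 0.19 at 48 h (adjusted p = 0.0399). The 24 h call was lost without the set term (adjusted p = 0.0718), in set 2 alone (adjusted p = 0.0764) and without 24 h replicate 2 (adjusted p = 0.094). The 48 h call was lost in 12 of 22 alternatives, among them leaving out 0 h replicate 1 (adjusted p = 0.16) or 2 (0.0844), either library of 6 h (0.0585 and 0.0617), 12 h (0.0668 and 0.0554) or 24 h (0.058 and 0.0657), and 48 h replicate 1 (0.711). Scd genes resemble each other in sequence, so reads could be split between them.

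Acly, which supplies cytosolic acetyl-CoA, ranged from 531 to 900 CPM, Acaca, the carboxylase that makes malonyl-CoA, from 18.1 to 49.6 CPM, and Scd1 from 136 to 371 CPM, all without a call. Fasn, the fatty acid synthase, was at 1550, 1210, 1760 and 1950 CPM at 0 h and 1690 and 861 CPM at 48 h, with DMSO at 2480 and 2110 CPM, and its log2 change at 48 h was -0.57 (adjusted p = 0.0635). With DESeq2 that adjusted p was 0.0297. Stard4, a soluble sterol carrier, was at 53.8, 73.5, 95.4 and 109 CPM at 0 h and 119 and 104 CPM at 48 h, with a log2 change of 0.51 (adjusted p = 0.0504).

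**Figure D2:**
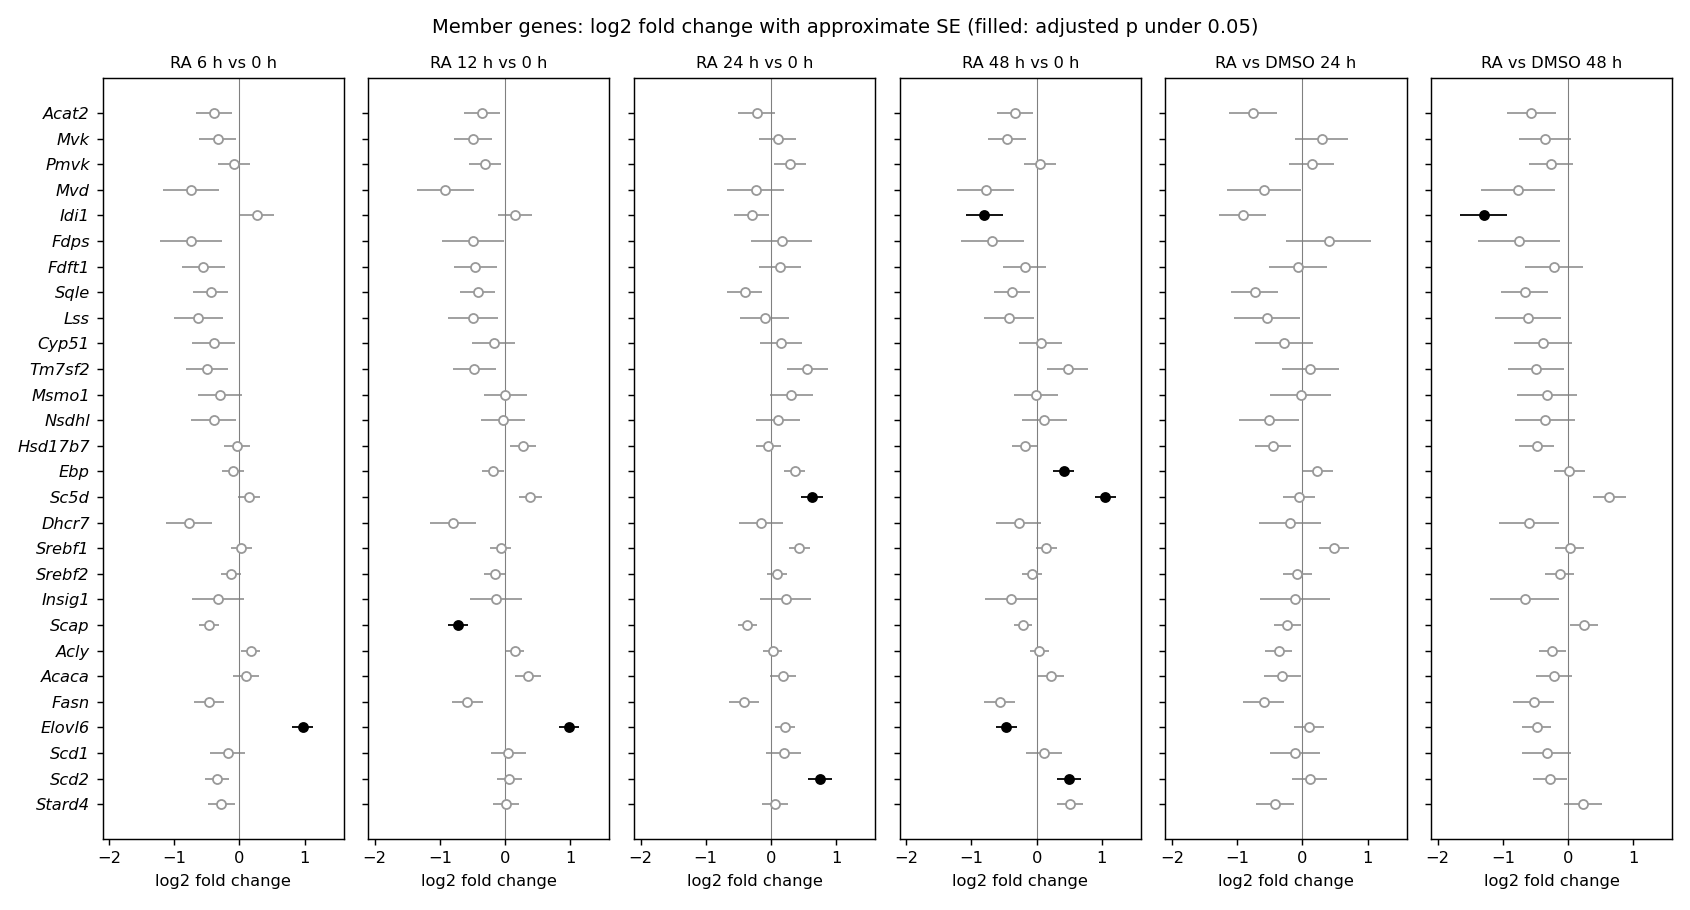
Log2 change (x axis, points, with bars of 1 standard error) of the 28 genes (y axis, grouped by role) at each RA time against 0 h and for RA against DMSO at 24 and 48 h, from the edgeR fit with the set term; filled points are called. Filled against 0 h are Elovl6 at 6, 12 and 48 h, Scap at 12 h, Sc5d and Scd2 at 24 and 48 h, and Ebp and Idi1 at 48 h, and against DMSO Idi1 at 48 h.

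Against DMSO of the same time, which matches time in culture, 0 of 28 genes were called at 24 h (10.4% of all genes were called) and 1, Idi1, at 48 h. Without the set term 0 were called at either time (1.89 and 7.96% of all genes). At an unadjusted p under 0.05 the edgeR test counted 1 of 28 at 24 h and 3 at 48 h. Of all 16155 genes, 4326 and 6023 had such a p. DESeq2 called 0 of 28 at 24 h (11.7% of all genes). The median log2 difference of the 28 genes was -0.15 at 24 h and -0.35 at 48 h, and -0.43 and -0.56 without the set term. These values also use the RA libraries of set 2, which has no DMSO library. Between the single RA and DMSO libraries of set 1 the median was -0.115 at 24 h and -0.11 at 48 h, without a test. There 11 and 8 of 28 genes were higher in RA, beside 47.9 and 48.6% of all genes. Each DMSO time had 1 library, whose spread was taken from the other groups, and the standard errors of these differences ran from 0.203 to 0.651. No gene of the 28 differed between 48 and 24 h in its RA-to-DMSO difference by edgeR (0.0619% of all genes did). An unadjusted p under 0.05 was found for 0 of 28, beside 1585 of all 16155 genes. The DMSO libraries together against 0 h gave 0 calls among the 28 and among all 16155 genes (0%) by edgeR. At an unadjusted p under 0.05 there were 2 of 28, beside 1263 of all genes. DESeq2 called 0 of the 28 and 6 of all genes. The median of the 28 was 0.32 (0.54 without the set term) with 25 of 28 positive, beside 7596 of all 16155 genes. Both DMSO libraries belong to set 1.

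**Figure D3:**
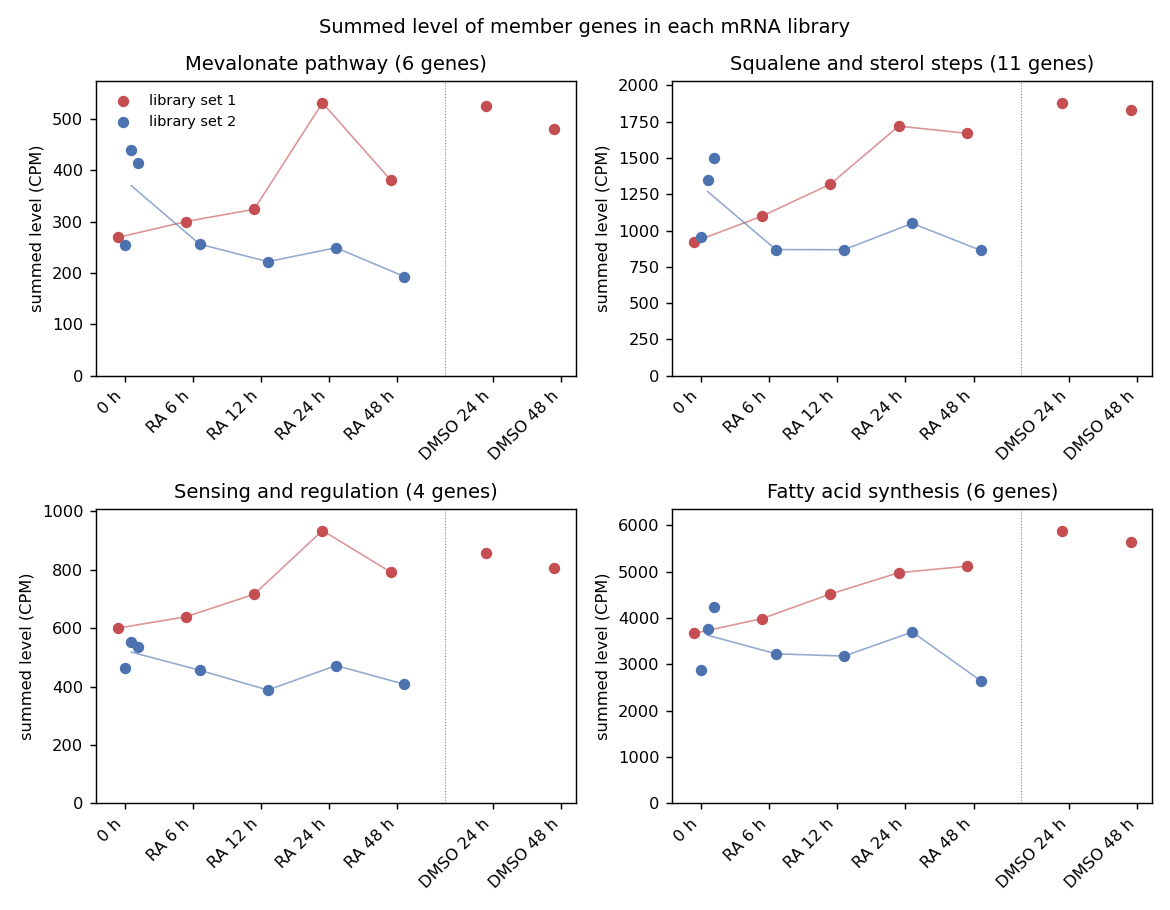
Summed level (y axis, CPM from 0) of the mevalonate, squalene and sterol, sensing, and fatty acid genes in each mRNA library by group (x axis), with set 1 in red and set 2 in blue and lines through the means of a set. In each panel the set 1 points of RA at 24 and 48 h and of DMSO lie above the set 1 point at 0 h, and the set 2 RA points lie within or below the set 2 points at 0 h.

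The direction of most of the 28 genes depended on the set. Summed over the 11 squalene and sterol genes, set 1 went from 922 CPM at 0 h to 1100, 1320, 1720 and 1670 CPM over the RA times, with DMSO at 1880 and 1830 CPM. Set 2 had 957, 1350 and 1500 CPM at 0 h and 869, 868, 1050 and 864 CPM under RA. The sum over all 28 genes ran from 4220 CPM, in set 2 at 48 h of RA, to 9250 CPM, in DMSO at 24 h, which is 0.4618 to 0.8722% of gene counts over the libraries.

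Within set 1, 23, 26, 25 and 25 of 28 genes were above 0 h replicate 1 at 6, 12, 24 and 48 h, with median log2 differences of 0.15, 0.37, 0.77 and 0.74. DMSO was above the same library in 28 of 28 genes at 24 h and 26 of 28 at 48 h, with medians of 0.88 and 0.74. All 6 comparisons share that single untreated library. Within set 2, 6, 6, 10 and 5 of 28 were above the mean of 0 h replicates 2 to 4, with medians of -0.38, -0.39, -0.17 and -0.47. Of all genes, 46.2 to 52% were above in these comparisons. These within-set values come from single RA libraries on a log2 scale with 1 added to each CPM, and have no test.

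The untreated libraries differed among themselves in the same genes. The highest of the 4 exceeded the lowest by a median of 1.64 times for the 28 genes and 1.46 times for the 10978 genes that averaged 5 CPM or more at 0 h. The highest was replicate 3 or 4 for 24 of 28 genes (85.7%, against 44.7% of those genes). Within set 2, replicate 4 exceeded replicate 2 in 27 of 28 genes and replicate 3 exceeded it in 25. Against replicate 2 alone, set 2 RA libraries were higher in 13, 13, 18 and 8 of 28 genes, and against replicate 4 alone in 3, 3, 5 and 2. Which untreated library served as the reference thus changed the count by 6 to 13 genes.

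Leaving out 0 h replicate 1, the only untreated library of set 1, gave 9 calls among the 28 at 12 h (1 higher, 8 lower) and 10 at 48 h (1 higher, 9 lower), where the full fit gave 2 and 5. In the fit without that library 13.2% of all genes were called at 12 h (7.77% higher, 5.42% lower) and 45.8% at 48 h (24.4% higher, 21.4% lower). The 8 lower at 12 h were Mvk, Mvd, Fdft1, Sqle, Lss, Dhcr7, Scap and Fasn, and the 9 lower at 48 h were Mvk, Mvd, Idi1, Fdps, Sqle, Lss, Dhcr7, Insig1 and Fasn. A fit of replicates 1 and 2 alone with the replicate number as a block, which leaves out 0 h replicates 3 and 4, gave 11 calls at 24 h, all higher, and 8 at 48 h, 7 of them higher. In that fit 28.3% of all genes were called at 24 h (14.7% higher) and 46.2% at 48 h (24.3% higher). The 9 gained at 24 h were Pmvk, Fdps, Fdft1, Cyp51, Tm7sf2, Msmo1, Ebp, Srebf1 and Insig1. At the times given, calls among the 28 were thus mostly lower in the first of these fits and mostly higher in the second. No gene of the 28 was called both higher and lower at the same RA time.

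**Figure D4:**
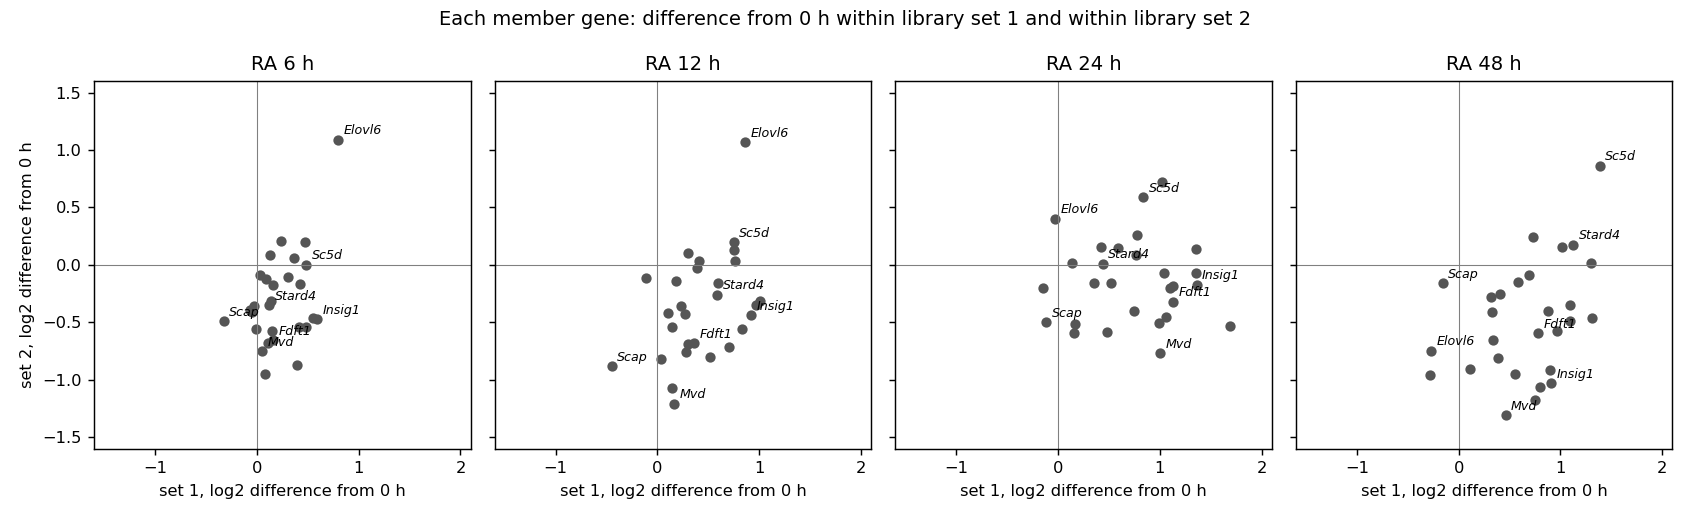
Log2 difference between RA and 0 h within set 2 (y axis) against that within set 1 (x axis) for the 28 genes, 1 point per gene, in a panel for each RA time. Genes at the lower right were higher in set 1 and lower in set 2; 17, 20, 17 and 20 of 28 genes had opposite signs at 6, 12, 24 and 48 h.

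Both sets gave the same sign in 11, 8, 11 and 8 of 28 genes at 6, 12, 24 and 48 h, while 63, 69.1, 66.2 and 79.1% of all genes did. Sc5d was higher in both sets at all 4 times, though by a log2 of only 0.001 in set 2 at 6 h. Scap was lower in both at all 4. Elovl6, Acly and Acaca were higher in both at 6 and 12 h, and Tm7sf2, Ebp, Scd2 and Stard4 at 24 and 48 h. Idi1 was lower in both at 24 and 48 h. Both RA libraries lay above all 4 untreated ones for Acly and Elovl6 at 6 h, Sc5d and Elovl6 at 12 h, Sc5d, Srebf1 and Scd2 at 24 h, and Ebp and Sc5d at 48 h, where 10.3, 13.5, 19 and 27.4% of all genes did. For 0 of 28 genes did both RA libraries lie below all 4 (8.23, 12.2, 14.8 and 22.7% of all genes).

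The sets also differed in level across groups. In the term for the set, 10 of 28 genes were called, all lower in set 2 (35.7%, where 42.1% of all genes were called). They were Mvk, Fdft1, Dhcr7, Srebf1, Srebf2, Insig1, Scap, Acaca, Fasn and Scd2, with Insig1 (-1.23) and Fdft1 (-1.15) the furthest apart. What the sets stand for is not given in the labels, and read lengths of 72 and 50 bp are named there without the libraries they belong to.

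Other genes of sterol and lipid metabolism were taken from a comparison list of 51. Of the 50 tested, 5 were higher and 0 lower at 6 h, 5 and 4 at 12 h, 18 and 5 at 24 h and 26 and 4 at 48 h, which is 10, 18, 46 and 60% of them, beside 5.61, 12.7, 29 and 48.8% of all genes. Against DMSO 5 were higher and 1 lower at 24 h (12%, beside 10.4% of all genes) and 15 and 3 at 48 h (36%, beside 24.1%), and DMSO against 0 h gave 0 by edgeR. Without the set term the calls numbered 3, 4, 9 and 24 at 6, 12, 24 and 48 h, beside 1.66, 2.75, 12.3 and 29.5% of all genes, and 2 and 7 against DMSO, beside 1.89 and 7.96%. The difference between this list and all genes was not tested.

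The 5 genes of that list called at 6 h were Abcg4, Acsl4, Acss2, Acacb and Elovl7. Acss2, which makes acetyl-CoA from acetate, was at 15.5, 17, 12.8 and 11.6 CPM at 0 h, 34.3 and 43.4 CPM at 6 h and 42.1 and 43.3 CPM at 12 h. Its log2 change was 1.43 ± 0.20 at 6 h (adjusted p = 0.000504), lost without 6 h replicate 2 (adjusted p = 0.118), and 1.56 at 12 h. Acsl4, which joins long fatty acids to coenzyme A, was at 63.1, 70, 65.8 and 106 CPM at 0 h and 180 and 208 CPM at 6 h, with a log2 change of 1.44 at 6 h and 1.56 at 12 h. All RA libraries of Acss2 and Acsl4 at 6 and 12 h lay above their untreated range, but those times had no DMSO library. At 24 h the log2 change of Acss2 was 1.61 against 0 h and 0.98 against DMSO. The latter was not called (adjusted p = 0.0571), though it was in 3 of 18 alternatives. Acsl4 was called against DMSO at 48 h (0.91, adjusted p = 0.036), and that call was lost in 5 of 18 alternatives. Acacb, the carboxylase isoform of the mitochondrial surface, rose by a log2 of 0.74 at 6 h (adjusted p = 0.0297), but that call was lost in 9 of 22 alternatives. They were no set term (adjusted p = 0.12), the replicate block (0.0947), set 2 alone (0.177), and leaving out 0 h replicate 2 (0.082) or 4 (0.0526) or either library of 6 h (0.162 and 0.497) or 12 h (0.0598 and 0.0559).

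Elovl7, another elongase, climbed steadily from 36.5, 35.4, 32.5 and 29.1 CPM at 0 h through 53.1 and 45.8 CPM at 6 h, 65 and 55.1 CPM at 12 h and 72.4 and 76.9 CPM at 24 h to 103 and 95.2 CPM at 48 h. DMSO stayed at 36.3 and 43.7 CPM. Elovl7 was called at all 4 times and against DMSO at both (1.11 at 24 h, adjusted p = 0.00346, and 1.25 at 48 h, adjusted p = 0.000643). Its 6 h call was lost in 9 of 22 alternatives: no set term (adjusted p = 0.121), the replicate block (0.11), set 2 alone (0.406), only the groups compared (0.0799), and leaving out 0 h replicate 1 (0.0543) or 4 (0.0634), either 6 h library (0.278 and 0.306) or 12 h replicate 1 (0.0547). Its 12 h call was lost in set 2 alone (adjusted p = 0.0775), and its calls against DMSO held in all 18 alternatives tried.

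At 48 h genes of sterol storage and movement were among the 26 that rose, and the 4 that fell are not named here. Soat1, which esterifies cholesterol for storage, was at 10.5, 12.9, 9.07 and 10.5 CPM at 0 h and 43.1 and 72.4 CPM at 48 h, with DMSO at 10.4 and 15 CPM. Its log2 change was 2.48 ± 0.19 (adjusted p = 2.92e-07), it rose by 1.36 from 24 to 48 h, and the 48 h call held in all 22 alternatives. Npc1 and Npc2, which move cholesterol out of lysosomes, rose by 0.91 and 0.62 at 48 h and by 0.74 and 0.64 from 24 to 48 h. At 12 h Npc2 was called lower (-0.45, adjusted p = 0.0357), a call lost in 11 of 22 alternatives. Npc1 was at 81.5, 63.7, 54.5 and 55.4 CPM at 0 h and 148 and 104 CPM at 48 h, and DMSO was at 76.2 and 77.4 CPM. Npc2 reached 259 and 204 CPM, but its DMSO libraries were also high, at 209 and 227 CPM. The calls from 24 to 48 h were lost without the set term for Soat1 (adjusted p = 0.0786), Npc1 (0.178) and Npc2 (0.36). That of Npc1 was also lost without 24 h replicate 1 (0.161) or 48 h replicate 1 (0.181), and that of Npc2 without 24 h replicate 2 (0.0602) or 48 h replicate 1 (0.0992) or 2 (0.0672). Mylip, which marks lipoprotein receptors for breakdown, went from 0.451 to 1.79 CPM at 0 h to 4.41 and 9.27 CPM.

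Several of the largest changes were in genes with few reads. Abcg4, a sterol exporter, had 5, 1, 1 and 4 counts at 0 h, 54 and 29 at 6 h, 106 and 93 at 24 h and 59 and 63 at 48 h, with 1 and 2 in DMSO, and its call at 6 h was made with an adjusted p of 0.000278. Fads3, a desaturase relative, had 7, 13, 18 and 14 counts at 0 h and 89 and 55 at 24 h. Cyp27a1, a sterol hydroxylase, had 0, 2, 1 and 2 counts at 0 h, 0 and 16 at 24 h and 10 and 32 at 48 h. Its 24 h value rests on 1 library: the log2 change was 2.63 with both and -1.92 without 24 h replicate 2 (adjusted p = 0.577). Cyp46a1, another sterol hydroxylase, had 0, 4, 2 and 4 counts at 0 h and 17 and 13 at 24 h, and Lipa, the lysosomal lipase, had 0, 1, 1 and 4 at 0 h and 5 and 15 at 48 h. Osbpl5, of the oxysterol-binding family, had 46 and 17 counts at 24 h of RA and 1 in DMSO, and Acsl5 had 83 and 172 at 48 h and 10 in DMSO. Their changes were smaller against 0 h. The log2 change of Osbpl5 at 24 h was 4.55 against DMSO and 1.78 against 0 h, the latter call lost in 8 of 22 alternatives. That of Acsl5 at 48 h was 2.34 against DMSO and 1.62 against 0 h, the latter call lost in 3 of 22. Nr1h3, the nuclear receptor LXR alpha, had 9 and 11 counts at 48 h of RA and 0 in DMSO, but 6, 5, 10 and 8 at 0 h.

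**Figure D5:**
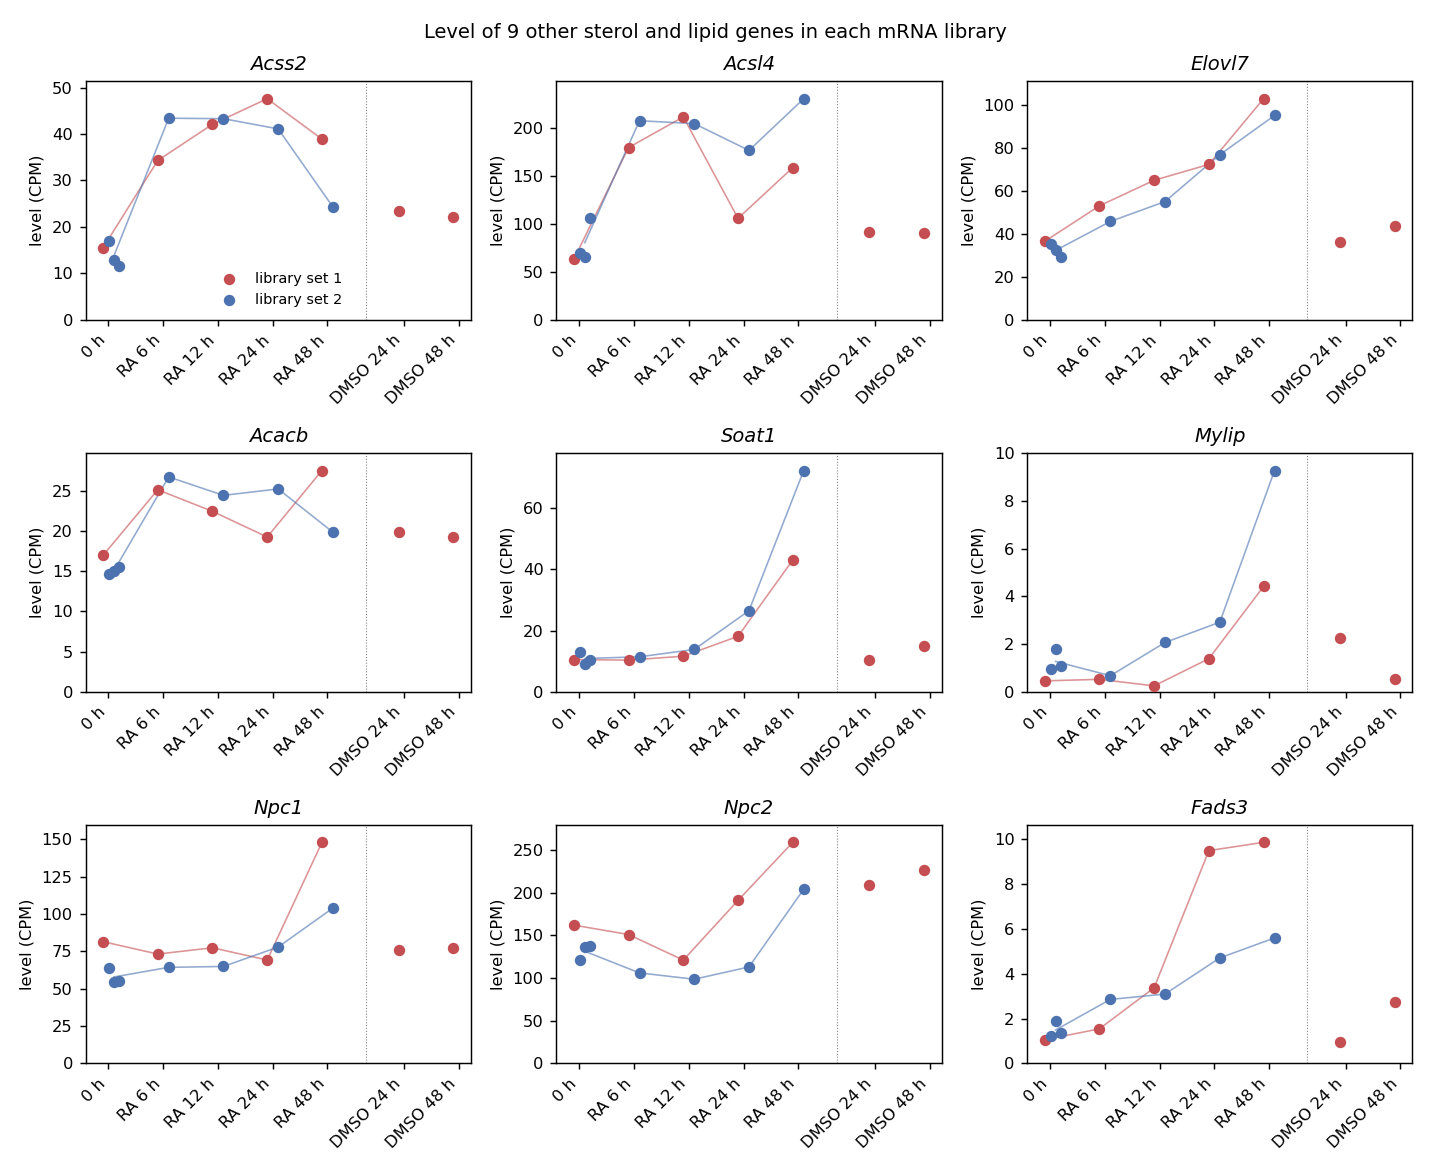
Level of 9 other sterol and lipid genes in each mRNA library (y axis, CPM from 0) by group (x axis), set 1 in red, set 2 in blue, lines through the means of a set. Acss2 and Acsl4 rise by 6 h in both sets, Elovl7 climbs at each time, and Soat1, Mylip and Npc1 rise between 24 and 48 h in both.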

How the data were processed

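RNA came from TRIzol extraction and was made into TruSeq V2 libraries, per the labels' protocols. The submitters' processing notes name TopHat2 2.0.7, HTSeq, DESeq and build mm9. Options and strand setting are not given in the sources used here. The authors deposited unnormalized read counts for Ensembl genes, each library in its own table. Each table held 36814 genes. Another 5 entries hold unassigned reads, 72.52 to 76.78% of all counts, and were left out of totals and tests. Columns of per-sample values that could not be mapped numbered 0. The RAR and RXR region list and the ChIP samples were not used here.

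A single quasi-likelihood model (edgeR 4.0.16, R 4.3.3) took all 14 libraries, with a term per group and 1 for the library set, TMM normalization (factors 0.9291 to 1.095), robust estimation and edgeR's default filter, which kept 16155 genes. Tests are two-sided, with Benjamini-Hochberg adjustment over those genes. Standard errors are approximate and were back-calculated from each log2 change and its F statistic. The fit was also run on simulated counts of this layout with 200 genes changed at 48 h of RA. Those counts were drawn from the fit's own spread. They cannot speak to the differences between untreated libraries or to the single DMSO libraries. Sets were split at the widest gap in the share of reads in no feature (55.54%). The members and lists were chosen with earlier results of these data known. All member genes are described whatever their result, and of the other sterol and lipid genes up to 4 called ones with the largest change per RA comparison. Npc1, Npc2, Elovl7, Soat1 and others so chosen in 1 comparison are also given in others. Within-set log2 values added 1 to each CPM. Figures were drawn with matplotlib 3.10.9.

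Alternatives were no set term, RLE normalization, other filters (none, or 1 CPM in 4 libraries), a replicate block, set 2 alone, only the groups compared, DESeq2 1.42.0 and leaving out each library. Replicate numbers are shared between groups: differences of replicate 1 minus 2 correlated between groups at 0.678 to 0.838 (median 0.715, all 10 pairs over 0.1). Number 1 is always set 1 and number 2 always set 2 here, so pairing and set cannot be told apart. Counts of replicates differed beyond sampling noise in every pair compared.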

Additional observations from a re-analysis of the deposited data

How the results depend on the processing

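Without the set term the 28 genes gave 1 call at 12 h, 0 at 24 h, 1 at 48 h, 0 from 24 to 48 h and 0 against DMSO at 48 h. All genes called then fell from 906 to 268 at 6 h, 2050 to 444 at 12 h, 4689 to 1993 at 24 h, 7881 to 4766 at 48 h, 1781 to 114 from 24 to 48 h, 1687 to 305 against DMSO at 24 h and 3892 to 1286 at 48 h. With the replicate block, the 28 genes gave 11 calls at 24 h and 8 at 48 h (28.3 and 46.2% of all genes). Set 2 alone gave 1 at 12 h, 0 at 24 h and 9 at 48 h (1 higher, 8 lower), beside 3.08, 10.7 and 32.9% of all genes (at 48 h 19.7% higher, 13.2% lower). Only the groups compared gave 2 at 48 h and 3 from 24 to 48 h (45.7 and 12% of all genes), and could not be fitted for RA against DMSO. Requiring 1 CPM in 4 libraries gave 0 from 24 to 48 h (10.6%). Leaving out 1 library gave 0 to 3 calls at 6 h, 0 to 9 at 12 h, 1 to 4 at 24 h, 1 to 10 at 48 h, 0 to 1 from 24 to 48 h, 0 against DMSO at 24 h, 0 to 4 against DMSO at 48 h and 0 for DMSO against 0 h, while all genes called ranged over 1.49 to 6.24%, 2.9 to 14.9%, 19.6 to 29%, 31.9 to 51%, 4.38 to 15.1%, 3.64 to 16.7%, 14 to 27.9% and 0 to 0.00617%, in that order. The cause of these differences was not tested. Of 7261 gene values under alternatives, 6970 had the same call as in the main fit, 211 lost the call and 79 gained it. Values called in neither fit count among the 6970 whatever their sign. Fdps at 24 h, for example, was 0.163 in the main fit and as low as -0.603. Among values called in either fit 1, Cyp27a1 at 24 h, changed sign (-1.92 without 24 h replicate 2 and 3.04 without replicate 1). The median standard error of 0.264 to 0.275 at the RA times, with 2 libraries each, limits what could be called. DMSO comparisons have no block or set 2 value because both DMSO libraries are in set 1.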
